A study of Bos taurus with 48 samples.

Results

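The week after weaning was examined by comparing the whole blood transcriptome of the same calves on d 1 and on d 8, with both breeds pooled. The 32 libraries taken on d 1 and d 8 were selected out of 48 by the breed, calf number and day in their labels, and they form 16 pairs, 1 for each calf. The calves were 8 Holstein-Friesian (H-F) and 8 Jersey (J) bulls, group housed indoors and fed milk replacer and concentrate from an automatic feeder. Milk replacer had been cut stepwise, starting at 6 litres and reaching 0 after 14 days, on d 0, so that every calf had been without milk for 1 day at the first of these samplings and for 8 days at the second. A further library from each calf, taken on d -14 before the withdrawal began, was used as a reference for the size of the change. Calves that stayed on milk were not part of these samples, so that time after weaning, age and the passing of a week indoors cannot be told apart. By the paper's account the breeds came from different herds and differed in age at enrolment and in concentrate allowance. A difference between H-F and J calves therefore cannot be told apart from these. The paper adds that H-F calves never ate their full allowance, so that the concentrate on offer was in effect equal. It also reports that age at allocation was not significant as a covariate in its larger study. The question was whether any gene moved between d 1 and d 8 when the breeds were combined.

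Weaning takes a young ruminant from digestion of milk in the abomasum to fermentation of solid feed in the rumen, whose volatile fatty acids replace glucose and milk fat as the main fuel. It can also be a stressor, and stress hormones are known to release neutrophils into blood, to lower the number of circulating lymphocytes and to change the transcription of inflammatory genes. Whole blood RNA holds the transcripts of neutrophils, monocytes, lymphocytes, platelets and immature red cells together. Fewer cells of a type and less RNA per cell therefore cannot be told apart in any value that follows.

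The 16 libraries of d 1 held 26219017 to 39095624 counts and the 16 of d 8 held 28398386 to 37763851, with medians of 34933758 and 33668044. Reads on the 92 synthetic spike-in RNAs made up 0.177% to 0.260% of the counts on d 1 and 0.174% to 0.322% on d 8. The spike-in share was higher on d 8 in 12 of 16 calves, by 0.0273 percentage points on average (SD 0.0401, n = 16, exact two-sided sign-flip permutation test over calves, p = 0.012), and in 7 of 8 H-F and 5 of 8 J calves. Spike-ins were left out before normalization, and the part of this shift in the results that follow was not tested. J calf 85 lay farthest from the other calves of its breed on both days, with a mean root mean square distance of 0.689 log2 units on d 1 and 0.598 on d 8, against at most 0.569 and 0.497 for the other 7 J calves. H-F calf 25 lay nearly as far out on d 8, at 0.593, against at most 0.490 for the other 7 H-F calves. The study left an unnamed J calf out of its own analyses as an outlier. All 16 calves were kept here, and values without J calf 85 or H-F calf 25 are given for some of the results.

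Of 12604 genes tested, 1 differed between d 1 and d 8 and 0 were higher on d 8. The gene that fell was ENSBTAG00000012403, which has no symbol in the sources used here. Genes were called differentially expressed (DEG) where edgeR's quasi-likelihood test, with each calf compared with itself, gave a false discovery rate (FDR) below 10% and the level differed by 1.5-fold or more (0.585 in log2 units). The share of all genes called, 0.00793%, is the background for counts of genes called by this test over both breeds. The same gene was the only one called when no fold change was asked for. At an unadjusted p under 0.05 there were 443 genes, 3.51% of those tested, of which 164 (1.3%) were higher and 279 (2.21%) lower on d 8.

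The estimates behind this count were narrow. The median standard error of a log2 fold change was 0.05, and 90% of genes had a log2 fold change between -0.11 and 0.09, around a median of -0.003. For 12498 of the 12604 genes, or 99.2%, the 95% interval of the change lay wholly inside a 1.5-fold change in either direction, and for 106 genes it reached beyond it. These intervals are not adjusted for the number of genes. Only 8 genes had an estimate of at least 1.5-fold, 2 of them higher and 6 lower on d 8. Levels of single genes are given as CPM, the count of a gene scaled to the normalized size of its library.

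**Figure D1:**
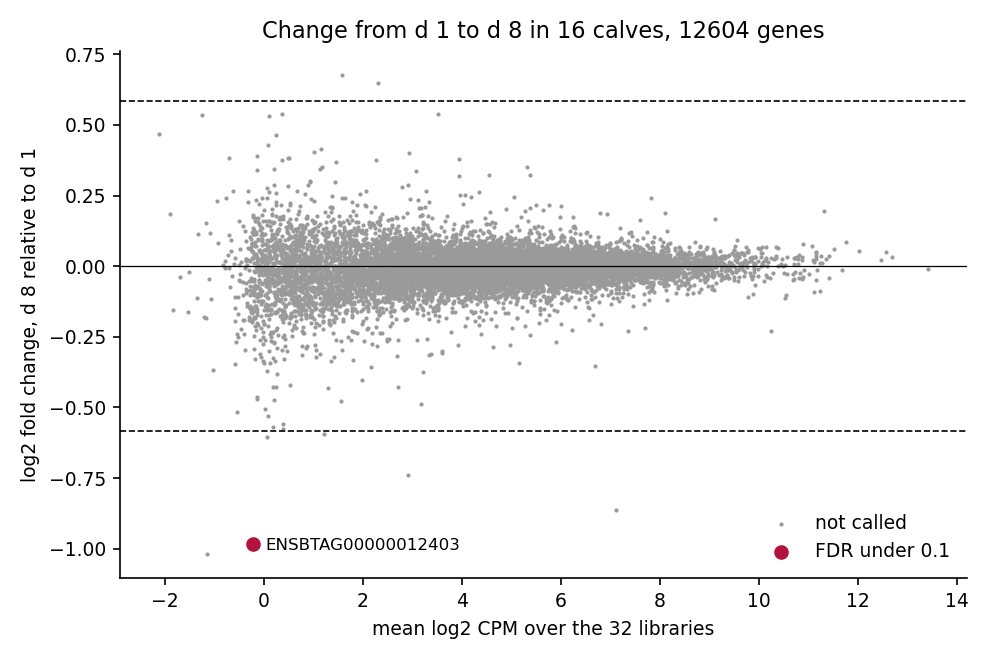
Each point is 1 of 12604 genes, with its mean log2 CPM over the 32 libraries on the horizontal axis and its log2 fold change from d 1 to d 8 on the vertical axis. Dashed lines mark a 1.5-fold change, and the red point is ENSBTAG00000012403 at -0.98, the only gene with an FDR under 0.1.

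ENSBTAG00000012403 had 0.400 to 3.47 CPM (median 1.88) in the 8 H-F calves on d 1 and 0.132 to 1.49 CPM (median 0.813) on d 8. In the 8 J calves it had 0.366 to 9.34 CPM (median 0.765) on d 1 and 0.200 to 8.63 CPM (median 0.295) on d 8. The ranges of the 2 days overlapped in both breeds, but the value of d 8 was below that of d 1 in 16 of 16 calves, and it was the only gene that was lower in every calf. No gene was higher in every calf. The log2 fold change was -0.98 (SE 0.16, 95% interval -1.31 to -0.66, FDR = 0.0457 by edgeR's quasi-likelihood test), or -1.14 (SE 0.21) in H-F and -0.78 (SE 0.23) in J calves, with a difference between breeds of 0.35 (SE 0.32, FDR = 0.628 by the same test). J calf 57 stood far above the rest on each day, at 13.3 CPM on d -14, 9.34 on d 1 and 8.63 on d 8. Without that calf the FDR was 0.00501.

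The call rested on few reads and depended on single calves. The gene had 12 to 352 reads per library on d 1 (median 30.5) and 5 to 265 on d 8 (median 13). It was lost when 1 of 6 calves was left out, either one of 25, 27, 33 and 56 in H-F or one of 6 and 77 in J, with an FDR between 0.105 and 0.203 by edgeR's quasi-likelihood test. The number of genes at an FDR under 10% was then 0. It was 3 when H-F calf 48 was left out, and 2 when J calf 13 or 85 was.

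The level of ENSBTAG00000012403 had also differed before weaning, with 0.875 to 13.3 CPM on d -14 (median 3.52 CPM over 16 calves, against 0.872 on d 1 and 0.394 on d 8). In a fit of all 48 libraries its log2 fold change was -1.56 from d -14 to d 1 (FDR = 0.000186 by edgeR's quasi-likelihood test), -2.48 from d -14 to d 8 (FDR = 3.39e-08) and -0.93 from d 1 to d 8 (FDR = 0.89). These 3 values share their libraries and are not independent of each other. In the fit of all 48 libraries the gene was thus not called between d 1 and d 8.

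ENSBTAG00000006342, also without a symbol, had the second smallest p of all genes and did not pass the threshold. It had 84.6 to 218 CPM (median 139) in H-F calves on d 1 and 72.2 to 141 (median 102) on d 8, and 45.3 to 236 CPM (median 96.0) and 52.7 to 190 (median 75.6) in J calves. The value was lower on d 8 in 14 of 16 calves, and the groups overlapped. The log2 fold change was -0.35 (SE 0.06, 95% interval -0.49 to -0.22, FDR = 0.119 by edgeR's quasi-likelihood test). Its FDR was under 10%, with a change of less than 1.5-fold, when J calf 85 was left out (FDR = 0.039) or H-F calf 48 (FDR = 0.0638), with no filter on low counts (FDR = 0.0535) and in DESeq2 (FDR = 0.000347). Before weaning its median had been 190 CPM, and its log2 fold change from d -14 to d 1 was -0.69 (FDR = 0.000186 in the fit of all 48 libraries). Another gene without a symbol came next among the lower genes, with a median of 591 CPM on d -14, 146 on d 1 and 82.4 on d 8, a log2 fold change of -0.86 (SE 0.17) in the last week and an FDR of 0.219 in that test.

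HR, ARSK and FOSB were the genes with symbols and the smallest p among those lower on d 8, and none of them passed the threshold. HR encodes a nuclear corepressor known for its part in hair follicle cycling. It had 4.93 to 7.39 CPM (median 5.46) in H-F calves on d 1 and 3.1 to 7.59 (median 4.97) on d 8, and 5.79 to 12.2 (median 8.89) and 3.69 to 10.9 (median 6.95) in J calves. It was lower on d 8 in all 8 J calves and in 6 of 8 H-F calves (log2 fold change -0.26, SE 0.06, FDR = 0.48 by edgeR's quasi-likelihood test), and between d -14 and d 1 its log2 fold change had been -0.33 (FDR = 0.00923 in the fit of all 48 libraries).

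FOSB, a subunit of the AP-1 transcription factor that is transcribed within minutes of cell activation, had 7.63 to 25.3 CPM (median 13.3) in H-F calves on d 1 and 5.31 to 18.8 (median 10.7) on d 8. It was lower on d 8 in all 8 H-F calves and in 5 of 8 J calves. The log2 fold change over both breeds was -0.31 (SE 0.08, FDR = 0.848), with -0.49 (SE 0.10) in H-F and -0.12 (SE 0.10) in J calves. DESeq2 called FOSB within H-F calves, where edgeR's quasi-likelihood test gave an FDR of 0.385. ARSK, a lysosomal sulfatase, was lower in 13 of 16 calves, from a median of 0.897 CPM to 0.698 CPM (log2 fold change -0.29, SE 0.09, FDR = 0.896). The d -14 level of both genes was close to that of d 1, with medians of 11.0 CPM for FOSB and 0.874 CPM for ARSK.

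**Figure D2:**
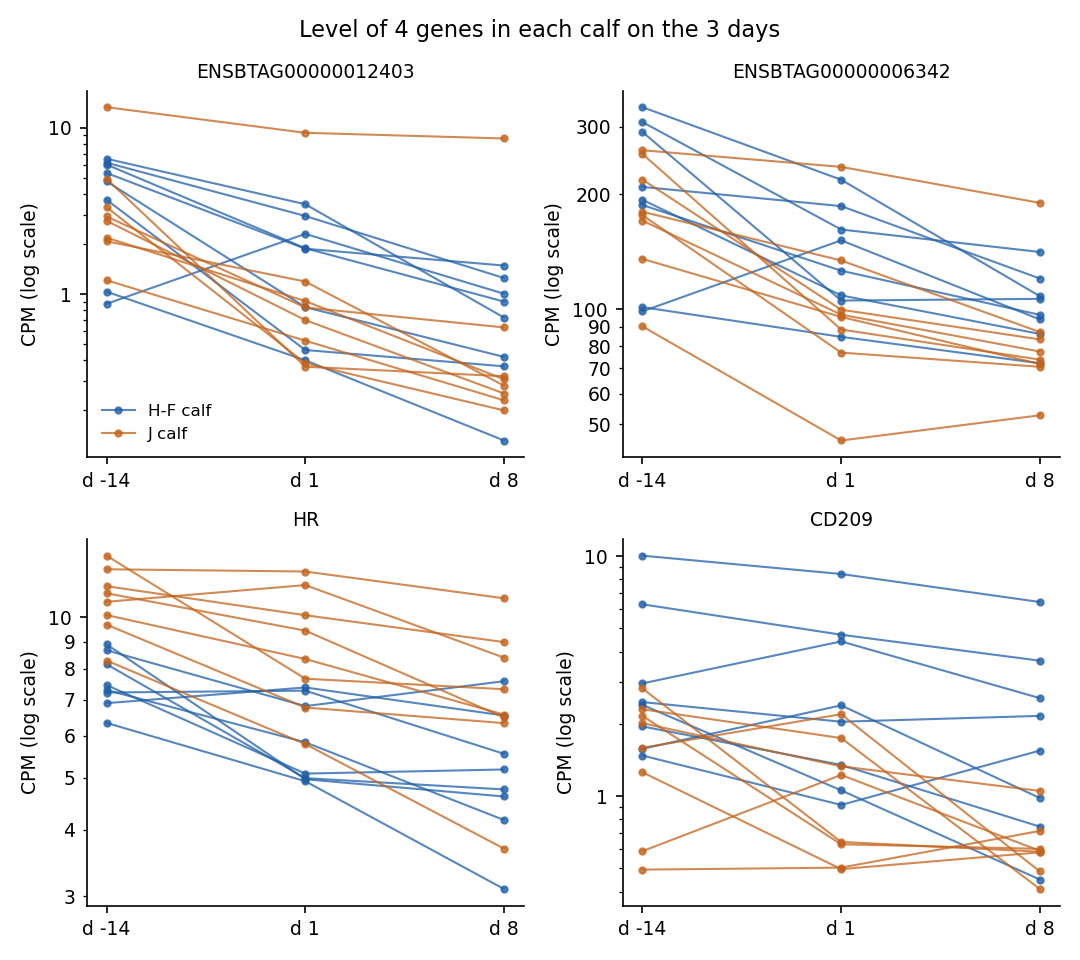
The level of ENSBTAG00000012403, ENSBTAG00000006342, HR and CD209 in CPM on a log axis is joined across the 3 sampling days for each of the 8 H-F (blue) and 8 J (orange) calves. ENSBTAG00000012403, at the top left, is the only one called between d 1 and d 8 and is lower on d 8 in 16 of 16 calves, while CD209 is lower in 12 of 16.

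Among genes higher on d 8, ENSBTAG00000018941 and ENSBTAG00000047538 had the smallest p of those without a symbol. TAC3, BANK1 and AGPAT2 had the smallest p of those with symbols. Further genes without a symbol were left unnamed, and 0 of the 5 named genes passed the threshold. TAC3, the precursor of neurokinin B, had 12.6 to 109 CPM (median 53.2) in H-F calves on d 1 and 23.1 to 130 (median 70.8) on d 8, and 7.85 to 53.6 (median 34.0) and 10.3 to 54.9 (median 38.5) in J calves. It was higher on d 8 in 7 of 8 calves of each breed (log2 fold change 0.35, SE 0.09, FDR = 0.848 by edgeR's quasi-likelihood test). Within H-F calves its log2 fold change was 0.50 (SE 0.12), which DESeq2 called and edgeR's test did not (FDR = 0.563). The mean in H-F calves was 54.6 CPM (SD 30.1) on d 1 and 75.6 CPM (SD 38.5) on d 8. Log2 changes of single calves of both breeds ran from -0.54 to 1.05.

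BANK1, a scaffold protein of B cell receptor signalling, was measured most precisely of the 5. Its median was 79.4 CPM in H-F calves on d 1 and 85.1 on d 8, and 101 and 111 CPM in J calves, with a log2 fold change of 0.12 (SE 0.03, 95% interval 0.05 to 0.18, FDR = 0.859). It was higher on d 8 in 13 of 16 calves. AGPAT2, an enzyme of phospholipid and triglyceride synthesis, was higher in 15 of 16 calves, from a median of 7.08 CPM to 7.95 CPM (log2 fold change 0.17, SE 0.05, FDR = 0.859). ENSBTAG00000018941 had medians of 1.59 CPM and 2.09 CPM and was higher on d 8 in 8 of 8 H-F and 5 of 8 J calves (log2 fold change 0.41, SE 0.09, FDR = 0.48). ENSBTAG00000047538 had medians of 0.95 CPM and 1.32 CPM and was higher in 14 of 16 calves (log2 fold change 0.35, SE 0.08, FDR = 0.603).

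Markers of the blood cell types and genes of pathways were then read from 25 lists. Symbols were available only for 701 genes that the study's tables list as differing between the breeds in these samples, so that 92 identifiers could be placed on a list and tested. These genes are thus not a fair sample of each list, and 0 markers of T cells, gamma-delta T cells, heat shock, cell cycle, ribosomal proteins, glucose and amino acid metabolism or the circadian clock could be read. With both breeds pooled, 0 genes of the 18 lists with a measured gene passed an FDR of 10% in edgeR's quasi-likelihood test, against 0.00793% of all genes. The smallest FDR of any list member was 0.848, that of FOSB. Within breed, DESeq2 called 4 genes in H-F calves, among them the list member FOSB, and 1 in J calves, the list member IL1R2.

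Markers of B cells varied least from calf to calf of the 11 lists with at least 3 measured genes. Of 12 measured genes, 9 were higher and 3 lower on d 8, with a median log2 fold change of 0.05 against -0.003 over all genes and a range from -0.03 for EBF1 to 0.12 for BANK1. MS4A1, which encodes CD20, had medians of 316 CPM on d 1 and 321 on d 8 (log2 fold change 0.04, SE 0.03). CD79B, a subunit of the B cell receptor, had medians of 233 and 245 CPM (0.08, SE 0.03). BANK1 and CD79B had an unadjusted p under 0.05, which 3.51% of all genes had. Other lists also held such genes, with 2 lower of 5 dendritic cell genes and 2 lower of 7 immediate early genes. There were 1 higher and 2 lower of 9 inflammatory genes, and 1 higher and 1 lower of 6 cytotoxic genes. There were also 1 higher of 5 neutrophil genes, 1 lower of 3 monocyte genes and 3 lower of 25 cytokine and receptor genes of the study. The platelet, eosinophil and basophil, and interferon-stimulated lists held 0. The mean change of the B cell list lay between -0.13 and 0.23 in single calves and was above 0 in 11 of 16.

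Neutrophil and monocyte markers were mixed in direction. Of 5 neutrophil genes, 2 were higher and 3 lower, from -0.16 (SE 0.14) for CXCR2, the receptor that draws neutrophils towards interleukin 8, to 0.24 (SE 0.12) for FCGR3A, an Fc receptor for immunoglobulin G. The granule protein LCN2 had medians of 14.6 and 15.1 CPM and a log2 fold change of 0.13 (SE 0.06). Of 3 monocyte genes, the scavenger receptor MSR1 was at -0.26 (SE 0.09), from a median of 9.14 CPM to 6.74 CPM, while AIF1 was at 0.07 (SE 0.09). The mean log2 level of the 3 monocyte genes was lower on d 8 in 12 of 16 calves, 7 of 8 H-F and 5 of 8 J. Their summed CPM, most of it from AIF1, had a higher median on d 8, 127 against 111 on d 1. AIF1 itself was higher in 8 calves and lower in 8.

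Dendritic cell markers had a median log2 fold change of -0.12 over 5 genes, 4 of which were lower. This median was -0.02 without J calf 7 and -0.04 in limma-voom. CD209, a lectin of dendritic cells and macrophages that binds mannose on microbes, had 0.920 to 8.42 CPM (median 2.22) in H-F calves on d 1 and 0.450 to 6.44 (median 1.85) on d 8, and 0.497 to 2.19 (median 0.935) and 0.411 to 1.05 (median 0.590) in J calves. It was lower in 6 of 8 calves of each breed, and the days overlapped (log2 fold change -0.58, SE 0.17, 95% interval -0.93 to -0.22, FDR = 0.898 by edgeR's quasi-likelihood test). FLT3, the receptor for the growth factor of dendritic cell precursors, was lower in 13 of 16 calves, from a median of 5.74 CPM to 4.89 CPM (-0.24, SE 0.08). Of the other dendritic cell genes, CD1A was at -0.12, CD83 at -0.02 and BATF3 at 0.05. From d -14 to d 8, CD209 and FLT3 had log2 fold changes of -1.01 and -0.51 in the fit of all 48 libraries. Their FDR was 0.00133 and 0.000264 by edgeR's quasi-likelihood test, where 14.8% of all genes were under 10%. These values share the libraries of d 8 with those above.

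Of 6 genes of cytotoxic and natural killer cells, 4 had a log2 fold change above 0 and 2 below. GZMB, a granule protease that kills target cells, had a median of 13.1 CPM on d 1 and 18.8 on d 8 and was higher in 13 of 16 calves (log2 fold change 0.32, SE 0.13). KLRB1, a lectin-like receptor of natural killer cells, was lower in 12 of 16, from 7.76 to 6.33 CPM (-0.19, SE 0.06). The remaining 4 genes lay between -0.13 for NCR1 and 0.09 for CCL5. Of 9 platelet genes, 8 had a log2 fold change above 0, with a median of 0.05 and the highest value, 0.29 (SE 0.17), in GP9, a subunit of the von Willebrand factor receptor. PF4, a chemokine stored in platelet granules, was at 0.05 (SE 0.10), with medians of 255 CPM and 250 CPM. Single genes of plasma cells (CD38, 0.05), red cells (XK, 0.13; SELENBP1, -0.11) and eosinophils and basophils (HRH4, 0.03; SIGLEC8, -0.03; ADORA3, -0.04) had 95% intervals that held 0. CDH5, the only measured gene of the list for tissues other than blood, encodes a cadherin of blood vessel walls and had medians of 0.771 CPM and 0.801 CPM.

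Of 9 inflammatory and acute phase genes, 3 were higher and 6 lower on d 8, with a median of -0.12. IL1B, the main interleukin 1 of myeloid cells, had medians of 104 CPM and 98.5 CPM (log2 fold change -0.13, SE 0.15). CCL3, a chemokine that attracts monocytes and lymphocytes, was at -0.53 (SE 0.19) and was lower in 8 of 8 J and 4 of 8 H-F calves, while a second identifier with that symbol, annotated as CCL3L3, was at 0.18 (SE 0.11). These 2 copies may share reads, so that the value of each is uncertain. PTX3, a pattern recognition protein of the pentraxin family, was at 0.46 (SE 0.21) from a median of 0.846 CPM to 1.09 CPM. Of 7 immediate early genes 6 were lower, with EGR2 at -0.28 (SE 0.10) and FOS at -0.13 (SE 0.09), and FOS was lower in 8 of 8 H-F and 2 of 8 J calves. Over the 25 cytokine and receptor genes that the study named between the breeds, which were chosen on these samples, 11 were higher and 14 lower, with a median of -0.01. Among them MET, a receptor tyrosine kinase for hepatocyte growth factor that the tables write as C-MET, was lower in 12 of 16 calves (-0.18, SE 0.06).

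Genes of nutrient use were few. GPR41, a receptor for the short-chain fatty acids that the rumen makes, had medians of 5.38 CPM on d 1 and 5.43 on d 8 (log2 fold change -0.008, SE 0.07, 95% interval -0.16 to 0.14). CPT1B, which carries long-chain fatty acids into mitochondria, was at 0.07 (SE 0.08), lipoprotein lipase (LPL) at -0.21 (SE 0.10), the cholesterol carrier STARD4 at -0.02 (SE 0.07) and COX7C, a subunit of cytochrome c oxidase, at -0.07 (SE 0.05). Some of these values join unlike breeds. CPT1B was at 0.28 (SE 0.09) in H-F calves, higher in 7 of 8, and at -0.13 (SE 0.09) in J calves, higher in 4 of 8. GPR41 was at 0.15 (SE 0.10) in H-F and -0.15 (SE 0.09) in J calves, and LPL at -0.39 (SE 0.14) and -0.02 (SE 0.14). The differences between breeds were -0.41 for CPT1B, -0.30 for GPR41 and 0.36 for LPL, with FDR of 0.403, 0.403 and 0.439 in edgeR's quasi-likelihood test.

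**Figure D3:**
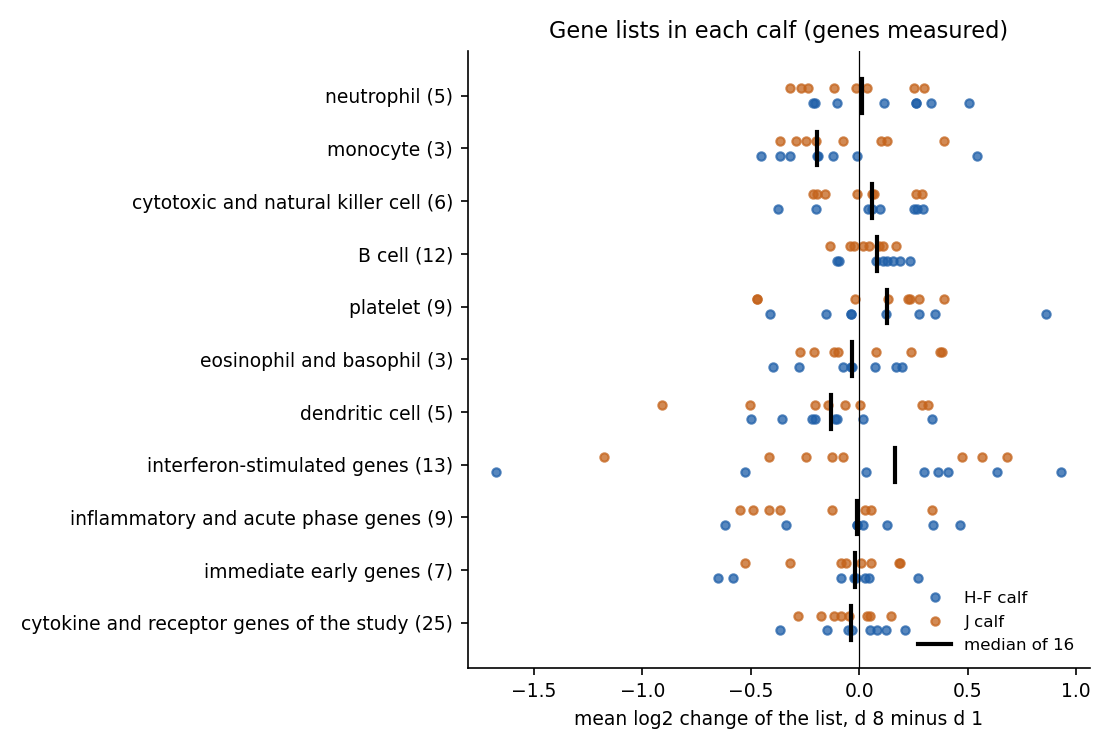
For each of the 11 lists with at least 3 measured genes (number in brackets), each point is the mean log2 change of the list from d 1 to d 8 in 1 H-F (blue) or J (orange) calf, and the bar is the median of 16 calves. The medians lie close to 0, and the points of the interferon-stimulated genes reach from -1.67 to 0.93.

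Of the 11 lists with at least 3 measured genes, the interferon-stimulated genes varied most from calf to calf. They are switched on by interferon in almost every blood cell and are known to limit viral replication. The 13 measured genes had a median log2 fold change of 0.02 over 16 calves, and the smallest unadjusted p among them was 0.542. The SD of the change over calves had a median of 0.776 in this list, against 0.188 over all 12604 genes. Apart from the B cell genes, at 0.162, every other such list also lay above 0.188, up to 0.608 in the inflammatory genes. Above the 95th percentile of all genes, 0.480, lay 12 of the 13 interferon-stimulated, 5 of 9 inflammatory and 3 of 5 neutrophil genes. In H-F calf 27 the mean log2 CPM of the list was 6.18 on d -14, 6.54 on d 1 and 4.87 on d 8, and 13 of 13 genes were lower on d 8. J calf 60 was also lower, from 6.10 to 4.92. H-F calf 33 was higher, from 5.99 to 6.92, as was J calf 6, from 5.93 to 6.61. Over all calves the mean was higher on d 8 in 6 of 8 H-F and 3 of 8 J calves.

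ISG15, a ubiquitin-like protein induced by interferon, had the widest range, from a log2 change of -2.58 in H-F calf 27 to 1.5 in H-F calf 25, around a log2 fold change of 0.09 (SE 0.27). OAS2, a sensor of double-stranded RNA, ran from -2.37 in H-F calf 27 to 1.48 in H-F calf 33 around 0.001 (SE 0.26). RSAD2, an antiviral enzyme also called viperin, ran from -2.26 to 1.23 in the same calves around 0.14 (SE 0.22). Single calves thus lay more than 1.5-fold from no change in both directions, while the values over both breeds were smaller than their standard errors. The genes of this list are regulated together, and OAS1X and OAS1Y are related copies that may share reads, so that the 13 genes are not independent observations.

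The size of the change was summarised for each calf as the root mean square of its log2 changes over the 12604 genes, which includes counting error. From d 1 to d 8 it ran from 0.189 in H-F calf 56 to 0.396 in H-F calf 25, with a median of 0.242. It was 0.315 in H-F calf 20 and 0.357 in H-F calf 48, while the J calves lay closer together, between 0.224 and 0.284. From d -14 to d 1, an interval of 15 days against 7, the median was 0.270. The later interval had the smaller value in 10 of 16 calves, a mean difference of -0.03 (SD 0.09, n = 16, exact two-sided sign-flip permutation test, p = 0.298), which is within the spread between calves. Without J calf 85 the difference was -0.01 (n = 15, p = 0.592 in the same exact test). Against the whole 22 days from d -14 to d 8, with a median of 0.290, the last week had the smaller value in 13 of 16 calves (mean difference -0.05, SD 0.05, n = 16, p = 0.000793 in the same exact test).

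**Figure D4:**
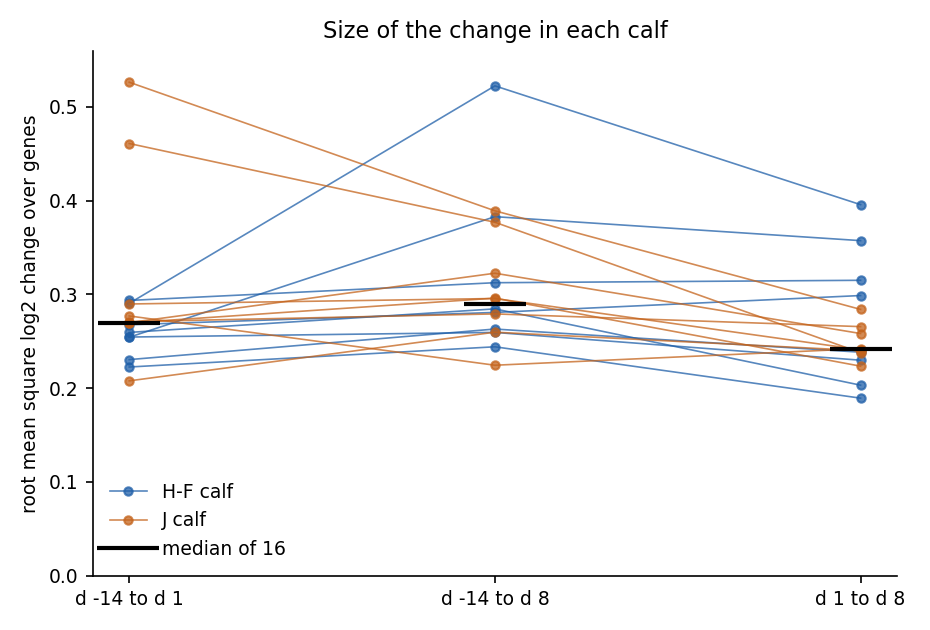
The root mean square log2 change over genes is shown for each H-F (blue) and J (orange) calf in 3 intervals, with a bar at the median of 16 calves. The medians are 0.270 for d -14 to d 1, 0.290 for d -14 to d 8 and 0.242 for d 1 to d 8, and lines join the values of a calf.

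The changes of different calves were hardly alike in direction. The correlation over genes of the d 1 to d 8 changes of a pair of calves had a median of 0.01 among the 28 pairs of H-F calves (range -0.37 to 0.41), 0.03 among the 28 pairs of J calves (-0.23 to 0.29) and -0.01 among the 64 pairs of unlike breed (-0.45 to 0.37). These are descriptions across genes, which are not independent, and each calf enters 15 pairs. Such correlations were not computed for the intervals from d -14. As a different measure, the fit of all 48 libraries with calf as a block gave 1677 genes at an FDR under 10% between d -14 and d 1 (13.2% of 12717, 52 of them DEG, 0.409%). It gave 1884 between d -14 and d 8 (14.8%, 88 DEG, 0.692%) and 0 between d 1 and d 8 (0%, with 380 or 2.99% at an unadjusted p under 0.05). Without J calf 85 the numbers were 426 (3.36% of 12677), 1379 (10.9%) and 0 (with 351 or 2.77% at an unadjusted p under 0.05). The 3 comparisons share libraries, and the difference between their counts was not tested. The study itself reported no DEG between days within either breed, by an unpaired test and with a J calf left out.

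Whether the breeds moved differently in this week was tested as the difference between the J and the H-F change. Breed here cannot be told apart from herd of origin, age at enrolment and concentrate allowance. None of 12604 genes passed an FDR of 10% in edgeR's quasi-likelihood test (0%), where the smallest FDR was 0.403, and DESeq2 called 1. An unadjusted p under 0.05 was reached by 1517 genes (12%), 679 (5.39%) with a more positive change in J and 838 (6.65%) with a more negative one. Within breed there were 0 genes at an FDR under 10% in H-F and 0 in J calves, with 1101 (8.74%) and 664 (5.27%) at an unadjusted p under 0.05 and 4 and 1 called by DESeq2. Those of H-F were ENSBTAG00000012403, ENSBTAG00000006342, FOSB and TAC3, and that of J was IL1R2. These unadjusted numbers moved with single calves. In H-F the number was 423 when calf 48 was left out and 2256 when calf 20 was. In J it was 329 after removal of calf 85, 410 after removal of calf 77, 1031 for calf 60 and 1367 for calf 6. For the difference between breeds it was 826 with H-F calf 48 removed, 979 with J calf 57 removed and 2447 with H-F calf 20 removed.

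IL1R2, SLC25A42 and ICAM1 had the smallest p for this difference among genes with symbols. IL1R2 encodes a decoy receptor that takes up interleukin 1 without passing on a signal, and its transcription is known to respond to glucocorticoids. On d 1 it had 1.78 to 7.52 CPM (median 2.74) in J and 4.25 to 10.1 (median 6.69) in H-F calves. On d 8 it had 0.805 to 4.43 CPM (median 1.60) in J and 4.80 to 11.8 (median 7.26) in H-F calves, so that the breeds overlapped on d 1 but not on d 8. They had not overlapped on d -14 either, with 1.43 to 5.62 CPM in J and 6.74 to 12.1 CPM in H-F calves. The study lists IL1R2 as differing between the breeds in these samples, and symbols came only from such lists. This separation of the breeds is therefore not independent evidence. It was lower on d 8 in 7 of 8 J calves and in 3 of 8 H-F calves. The log2 fold change was -0.86 (SE 0.15, FDR = 0.141) in J and 0.15 (SE 0.12, FDR = 0.66) in H-F calves, and the difference was -1.0 (SE 0.19, unadjusted p = 3.95e-05, FDR = 0.403 by edgeR's quasi-likelihood test).

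The exception was J calf 57, in which IL1R2 had 1.78 CPM on d 1 and 2.05 on d 8. Without this calf the difference between breeds was -1.15 and passed the threshold (FDR = 0.0148). Leaving out any other calf gave a difference between -1.08 and -0.92 and an FDR of at least 0.135, and DESeq2 gave -1.01 with an adjusted p of 0.00309. Over both breeds together the log2 fold change of IL1R2 was -0.26 (95% interval -0.56 to 0.03, FDR = 0.999 by edgeR's quasi-likelihood test).

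SLC25A42, which carries coenzyme A into mitochondria, had 3.12 to 5.27 CPM (median 4.34) in H-F calves on d 1 and 4.30 to 6.66 (median 5.11) on d 8, and 4.60 to 15.3 (median 7.04) and 4.52 to 12.6 (median 6.27) in J calves. It was higher on d 8 in 7 of 8 H-F and in 1 of 8 J calves, with log2 fold changes of 0.25 (SE 0.09) and -0.24 (SE 0.08) and a difference of -0.49 (SE 0.12, FDR = 0.403). ICAM1, an adhesion molecule that leukocytes bind when they leave blood, had 2.35 to 6.34 CPM (median 4.22) in H-F calves on d 1 and 2.43 to 5.73 (median 3.16) on d 8, and 1.62 to 4.34 (median 2.44) and 2.47 to 5.33 (median 2.93) in J calves. It was lower on d 8 in 6 of 8 H-F calves and higher in 7 of 8 J calves, with a difference in log2 fold change of 0.65 (SE 0.18, FDR = 0.403). With all 16 calves, none of the 3 differences passed an FDR of 10% in edgeR's quasi-likelihood test, and DESeq2 called that of IL1R2.

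**Figure D5:**
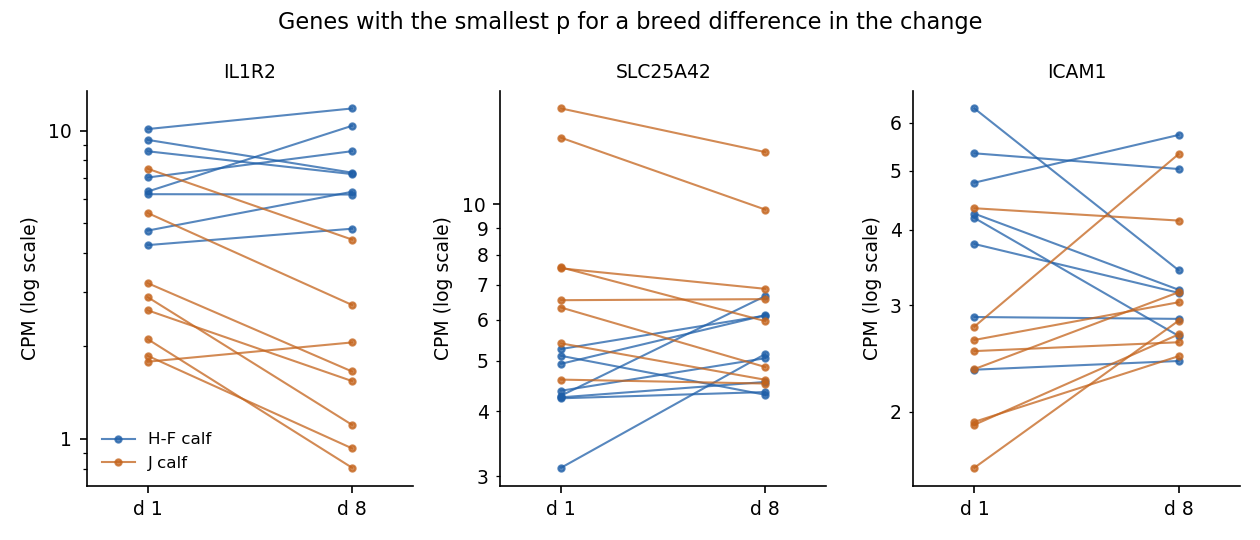
CPM on a log axis on d 1 and d 8 are joined for each of the 8 H-F (blue) and 8 J (orange) calves for IL1R2, SLC25A42 and ICAM1. IL1R2 is lower on d 8 in 7 of 8 J calves and in 3 of 8 H-F calves, and the breeds do not overlap on d 8. Symbols came only from genes that the study lists as differing between the breeds, so that this separation is not independent evidence.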

How the data were processed

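The deposited values are read counts per Ensembl gene, without normalization, which the authors made from whole blood RNA (TruSeq libraries, paired end) with STAR, keeping unique alignments with few mismatches to UMD3.1, and HTSeq-count in union mode. FastQC 0.10.0 is named in the submitters' processing notes. Versions of STAR and HTSeq, any trimming of reads and the strand setting were not given in the sources used. The table held 24616 genes and 92 spike-in sequences, all 48 columns were matched to samples by label, and 0 were left over.

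Spike-ins were removed and genes above 1 CPM in at least 8 of the 32 libraries of d 1 and d 8 were kept (12604). The test was edgeR 4.0.16's quasi-likelihood test with TMM factors and terms for calf and day, in R 4.3.3, with Benjamini-Hochberg adjustment. Separate day effects for H-F and J calves in the same kind of fit gave the values within breed and their difference. CPM are TMM-scaled over all 48 libraries, and log2 CPM used a prior count of 2. A calf's change is the difference of its log2 CPM. Permutation tests ran in Python 3.11.15 (scipy 1.17.1, numpy 2.4.6), with tables from pandas 2.3.3 and plots from matplotlib 3.10.9. All 65536 sign arrangements of 16 calf differences were enumerated. The fits were tested on simulated data.

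The study compared days with an exact test without pairing, within breed. Here calves were paired by the number in their label, since the same animals were sampled. After removal of breed and day means, log2 CPM of d 1 and d 8 correlated at 0.503 to 0.904 within a calf and at -0.628 to 0.409 between calves, and the biological coefficient of variation was 0.101 with a calf term and 0.204 without it. The standard error of a log2 fold change lay between 0.0272 and 0.114 for 90% of genes. Alternatives were DESeq2 1.42.0, limma-voom (limma 3.58.1, calf as a random effect, consensus correlation 0.604), the exact test without pairing, RLE factors, no filter, a mean count of at least 10, no calf term, all 48 libraries, an FDR of 5% and each calf left out. Intervals of all 48 libraries without J calf 85 were added after the data were seen.

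The comparison, the gene lists and the tests were chosen with earlier results of these data known. Symbols, for 701 genes (680 tested), came from the study's tables of genes that differ between breeds; no value of those tables was used. Genes named were the 5 with the smallest p in each direction (at most 2 by identifier only), each DEG, from each list the 3 with the smallest p and the 1 with the largest change, and the 3 with the smallest p for the breed difference. Further genes without a symbol were left unnamed. Other list members are named as examples of their list, chosen after their values were seen.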

Additional observations from a re-analysis of the deposited data

Results flagged for a closer look

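Among 108 sets of 8 calves of a breed (the changes of the 51 named genes, the root mean square change and the spike-in share on both days), 8 held 1 calf farther from the others than Dixon's critical value for 8 samples allows. Chance flags about 1 in 20 sets only where they are independent and normally distributed. The sets here share calves and hold genes chosen in part by their values, so that whether these 8 flags are many was not tested. In H-F calves they were a log2 change from d 1 to d 8 of 2.17 in the platelet gene GP9 (calf 48), -2.06 in the interferon-stimulated gene IFIT1 (calf 27), -0.771 in FLT3 (calf 33) and 0.287 in ARSK (calf 20). In J calves they were -0.985 in XK (calf 7), 0.607 in the neutrophil gene LCN2 (calf 6), 0.338 in CIITA (calf 6) and 0.201 in IL1R2 (calf 57). No named gene moved one way in every H-F calf and the other way in every J calf.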

How the results depend on the processing

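The number of DEG, 1, was 4 in DESeq2 and with no filter, and 0 in limma-voom, in the exact test, with no replicate block and with all 48 libraries. Genes at an FDR under 10% numbered 7 in DESeq2, 5 with no filter and 0 in the same 4 settings. With 1 calf left out they ranged from 0 to 3, and DEG from 0 to 2. ENSBTAG00000012403 was among the genes called in each setting that called any over both breeds. Its log2 fold change lay between -1.13 and -0.73 over the 24 alternatives run for it, whether or not they called it. Without the block (pairing of the calves dropped) its value was -0.79 and 45 genes had an unadjusted p under 0.05, against 443 with it; the exact test gave 27. The breed difference gave 1 gene in DESeq2, and 0 to 1 with 1 calf left out. H-F gave 4 in DESeq2 and 2 with no filter. J gave 1 in DESeq2, with no filter and with all 48 libraries, and 0 to 1 with 1 calf left out. The J gene and the gene of the breed difference was IL1R2 in each case. The cause of these differences was not tested, beyond the fewer or more genes and libraries that a setting holds. In the fit of all 48 libraries, leaving out J calf 85 lowered the genes between d -14 and d 1 from 1677 to 426 and the DEG from 52 to 25.

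The median of each of the 11 lists with at least 3 measured genes moved by less than the SD between calves in the 23 alternatives run for it. With 1 calf left out, however, 4 medians crossed 0, with ranges of -0.09 to 0.09 (neutrophil), -0.05 to 0.02 (eosinophil and basophil), -0.05 to 0.14 (interferon-stimulated) and -0.04 to 0.006 (cytokine and receptor genes of the study), and the platelet median ranged from 0.00004 to 0.12. Genes with values near 0 changed sign, none of them called. CD1A was at 0.0212 in limma-voom, CDH5 at -0.00401 with no replicate block, and GPR41 at 0.000132 with a mean count of at least 10 and 0.00382 with all 48 libraries. With 1 calf left out, the log2 fold change ranged from -0.0508 to 0.00731 for SIGLEC8, -0.0856 to 0.0241 for ADORA3, -0.0361 to 0.110 for CDH5, -0.165 to 0.0386 for IFIT1, -0.0789 to 0.0433 for IFIT5, -0.0569 to 0.0242 for GPR41 and -0.0484 to 0.0329 for STARD4. The highest value of IFIT1 was the one without H-F calf 27.

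Depth limited ENSBTAG00000012403, with a median of 13 reads on d 8. With 1 calf sampled once a day, the spread between days within a calf and the technical error of a library cannot be told apart.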
